A study of Mus musculus with 2 samples.

Results

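The genes for the protein components of the cytosolic ribosome were examined in mouse primordial germ cells (PGCs), which later give rise to eggs and sperm. The cells came from C57BL6 embryos at embryonic day (E) 9.5, were isolated with an antibody to the surface antigen SSEA1 and received no treatment. Per the paper's methods, the embryos were female, and PGCs were sorted with antibodies to CD61 and SSEA1 or with the SSEA1 antibody alone. RNA-seq was performed on 2 libraries, replicate 1 and replicate 2, which form a single group, so no comparison between conditions and no test between groups was possible. The study calls its RNA-seq replicates biological, but whether these libraries came from separate embryos or pools was not given in the sources used here, so the SD between them may be partly technical. Genes were taken by symbol: every row named Rpl or Rps plus a number, with an optional a, x, y or l ending, together with Rplp0, Rplp1, Rplp2, Rpsa and Fau. Rows marked as pseudogenes by -ps and the Rps6k kinase genes were left out. This gave 90 of the 18877 genes in the table, 53 of the large (60S) and 37 of the small (40S) subunit.

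The cytosolic ribosome joins ribosomal RNA to 80 standard proteins, 47 in the large and 33 in the small subunit, most of them in equal number. The small subunit reads the messenger RNA, and the large subunit joins amino acids and passes the growing chain through an exit tunnel. Ribosomal protein messenger RNAs are known for a 5′ terminal oligopyrimidine tract, a start of C followed by further C or T bases, through which the mTOR pathway regulates their translation. Most of these genes have many processed pseudogenes, and a few have functional paralogs that are used in germ cells or muscle. All 80 standard proteins had a row, and 78 of them were among the 90 genes. The 12 remaining genes were paralogs and copies, 6 of which the GENCODE M21 annotation lists as processed pseudogenes (Rpl32l, Rpl6l, Rps12l1, Rps3a2, Rps3a3 and Rps4l).

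Whole read counts were recovered from the TPM values (a level scaled to exonic length and to a fixed total per library), and gave 15912469 reads for replicate 1 and 5458687 for replicate 2, a 2.92-fold difference in depth. Of the fixed PGC markers, all 11 were at 1 TPM or more in both libraries. So were 11329 of all 18877 genes, and this level alone does not single out PGCs. Dppa3, a maternal-effect gene of early germ cells, was at 5013 and 5075 TPM, whereas Pou5f1, a pluripotency factor of PGCs, was at 1.54 and 1.46 TPM. Of the 9 erythroid markers 7 had a row, 6 of them at 1 TPM or more in both libraries. The 7 summed to 4002 and 3780 TPM, with Hba-x highest. Endothelial (5 of 6 with a row), macrophage and mesenchyme markers each summed to at most 19.4 TPM in either library. The gut endoderm markers, of which only 2 of 4 had a row, summed to at most 0.505 TPM. Red cell RNA in the libraries was not separated from PGC RNA in any value below. In such bulk samples, fewer cells of a type and less RNA per cell cannot be told apart.

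For the start of transcription, 65 of the 90 genes had 77 windows among the 32851 RefSeq promoter windows (GRCm38.p6, 300 bases each). A tract of 5 or more pyrimidines opening with C lay within 10 bases of the annotated start in 43 of the 77 windows (55.8%), against 30.7% of all windows and 31 of the 75 windows of mitochondrial ribosomal protein genes. A stricter form, with the C exactly at the annotated start and at least 4 pyrimidines after it, was chosen after the data were seen. It was found in 15 windows (19.5%), against 2.51% of all windows and none of the 75 mitochondrial windows. By subunit, 8 of 47 large and 7 of 30 small subunit windows had it. To show what such a start looks like, the 30 bases around it (10 before and 20 from the start) are given for 8 genes described below, with the tract in capitals.
Rpl35 (chr2:39005112-39005141, minus strand): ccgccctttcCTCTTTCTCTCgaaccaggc
Rps6 (chr4:86857348-86857377, minus strand): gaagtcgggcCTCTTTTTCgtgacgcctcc
Fau (chr19:6057937-6057966, plus strand): gcccccacttCTTCCTCTTTCTTgactcca
Rpl38 (chr11:114668570-114668599, plus strand): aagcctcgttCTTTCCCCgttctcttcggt
Rps27 (chr3:90213629-90213658, minus strand): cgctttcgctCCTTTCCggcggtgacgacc
Rplp2 (chr7:141447641-141447670, plus strand): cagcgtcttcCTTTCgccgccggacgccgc
Rps10 (chr17:27635225-27635254, minus strand): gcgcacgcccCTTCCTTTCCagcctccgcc
Rps18 (chr17:33955646-33955675, minus strand): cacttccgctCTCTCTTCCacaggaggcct
Among these 8 genes the mean level ranged widely, from Rpl35 at 4212 TPM to Rps18 at 94.0 TPM. Matches of CCGGAAG, the core of an ETS family site, were found in either strand in 27 of the 77 windows (35.1%), against 8.86% of all windows and 26 of the 75 mitochondrial windows. GGGCGG, the core of an Sp1 site, was in 59.7% against 35.7%, ATGGCGGC, the core of a YY1 site, in 6.49% against 2.24%, and TATAAA in 10.4% against 13.6%. In the 75 mitochondrial windows these were in 39, 12 and 5, so ATGGCGGC was in more windows there than the 5 of 77 here. These matches describe letters in a window and are not measured binding.

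The ribosomal protein genes were among the most abundant transcripts of the E9.5 PGCs. Together they held 9.73% of all TPM in replicate 1 and 10.6% in replicate 2 (10.2% ± 0.593, SD, n = 2). Of the 90 genes, 81 were at 100 TPM or more in both libraries and 31 at 1000 TPM or more, while 1152 and 164 of all genes reached these levels. Among the 100 highest genes of the table, 20 were ribosomal protein genes, 10 of each subunit. The median gene of the 90 was at 625 TPM, with quartiles of 292 and 1314 TPM. All genes had at least 2 recovered reads, and 13 had under 1000 in the shallower replicate 2.

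**Figure D1:**
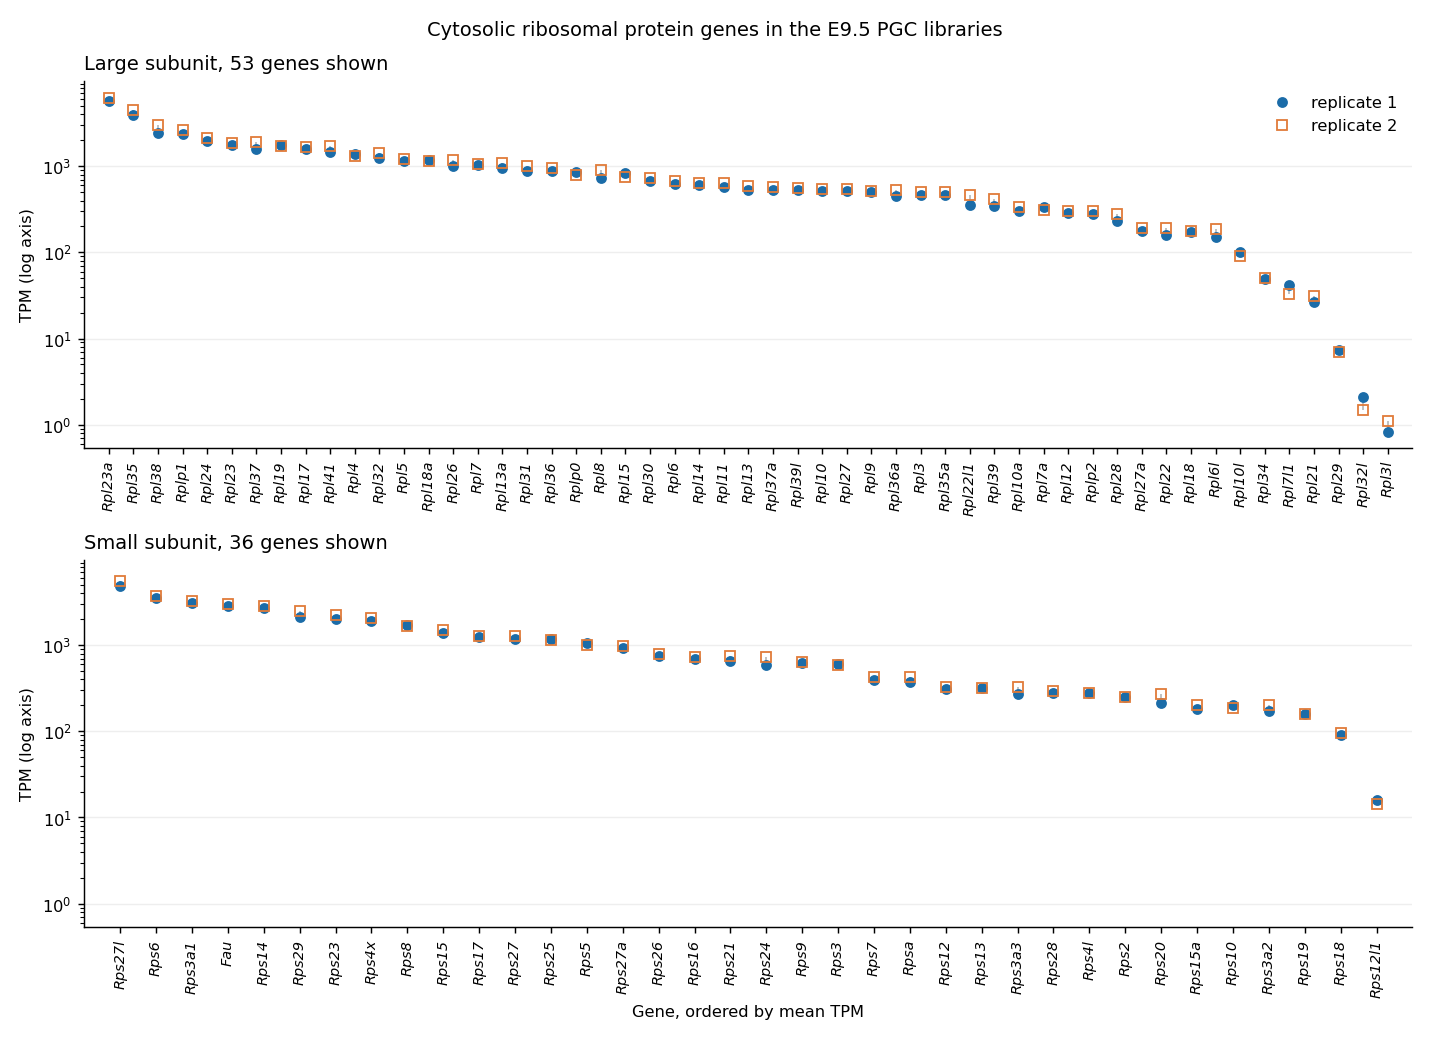
TPM (log axis) of 53 large and 36 small subunit genes in replicate 1 (filled circles) and replicate 2 (open squares), ordered by the mean of both libraries. The libraries nearly coincide at each gene, and a long slope of genes at 100 TPM or more ends in a few genes far below it.

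The large subunit genes ranged from 0.962 to 5958 TPM, and the lowest small subunit gene was at 15.2 TPM. The median large subunit gene was at 9.06 and 9.19 on the log2(TPM + 1) scale (9.13 ± 0.10), and the median small subunit gene at 9.37 and 9.50 (9.44 ± 0.09). The large minus small difference was −0.31 in each library, so its sign was the same in both. Single genes varied with an SD of 2.32 in the large and 1.85 in the small subunit on this scale. The quartiles were 295 and 1176 TPM for the large subunit and 285 and 1689 TPM for the small. Over the standard 80 proteins the difference was −0.16 ± 0.01. The mean TPM per standard protein was lower in the large subunit, at 0.702 and 0.724 of the small subunit mean. Without the 3 highest genes of each subunit it was 0.841. Over the standard proteins among the 28 genes that had little transcript sequence in common with other genes, as measured further on, the ratio was 0.476. Those 28 genes were 16 of the large and 12 of the small subunit, standard or not. A single high gene can therefore move this ratio of means far, and it was not computed without the highest genes.

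Rps27l, Rps6, Rps3a1 and Fau were among the 5 highest small subunit genes. Rps27l (chr9:66946086-66949516, plus strand, GRCm38), a paralog of Rps27 known as a p53 target, was at 4908 and 5636 TPM. Its reads gave exact Poisson 95% intervals of 4859 to 4957 and 5547 to 5725 TPM, which cover counting error only and did not overlap. Rps6, the small subunit protein phosphorylated by S6 kinase, was at 3496 and 3683 TPM. Rps3a1 was at 3050 and 3277 TPM. Fau, whose product is a ubiquitin-like protein fused to a small subunit protein, was at 2846 and 3046 TPM.

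In the large subunit the order was led by Rpl23a, Rpl35, Rpl38, Rplp1 and Rpl24. Rpl23a (chr11:78180932-78183584, minus strand), a protein at the rim of the exit tunnel, was at 5668 and 6247 TPM. Rpl35 (chr2:39001580-39005624, minus strand), its neighbour there, was at 3890 and 4534 TPM. These genes share exonic bases with other annotated genes, 62.3% for Rpl23a (Tlcd1 and a small nucleolar RNA) and 66.2% for Rpl35 (Arpc5l and Wdr38), and while the authors counted reads per gene with featureCounts, its settings for such reads were not given in the sources used here. Rpl38, known for its role in Hox messenger RNA translation and axial patterning, was at 2404 and 3033 TPM. Rplp1 was at 2382 and 2664 TPM and Rpl24 at 1958 and 2125 TPM.

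At the other end, 9 genes were under 100 TPM in at least one library. Rpl3l, the heart and skeletal muscle paralog of Rpl3, was at 0.832 and 1.09 TPM on 13 and 6 reads. Rpl32l was at 2.11 and 1.5 TPM on 8 and 2 reads. Among the standard proteins, Rpl29 was lowest at 7.29 and 6.91 TPM, from 78 and 26 reads. Rpl21 followed at 26.5 and 31.3 TPM, and Rpl34 at 48.8 and 50.02 TPM. Rpl7l1, a paralog of Rpl7, was at 41.9 and 33.2 TPM. In the small subunit, Rps12l1 was lowest at 16.1 and 14.2 TPM, and all of its sequence is also found in another annotated gene. The next were Rps18 at 91.4 and 96.5 TPM, Rps19, which is mutated in Diamond-Blackfan anaemia, at 160 TPM in each library, Rps3a2 at 172 and 200 TPM and Rps10 at 200 and 186 TPM.

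Several of the low standard genes had rows of near-copies in the same table. The table held 161 rows of ribosomal protein pseudogenes marked by -ps. Of these, 118 were at 1 TPM or more in both libraries and 29 at 100 TPM or more. They belonged to 52 of the 90 genes by name. Pseudogenes with other symbols, such as Gm15772 described further on, were not counted among these rows. For 5 genes the -ps rows summed to a higher TPM than the gene itself in both libraries, namely Rpl34, Rpl21, Rps2, Rps18 and Rpl3. This count leaves out pseudogenes with other symbols, which exceeded further genes such as Rpl26, as given further on. The rows named after Rpl34 held 97.9% and 98.0% of the joint TPM, chiefly Rpl34-ps1 at 2238 and 2391 TPM. For Rpl21, 10 such rows held 88.4% and 89.7%, and for Rps2, 5 rows held 68.0% and 66.3%. For Rps18 and Rpl3 the shares were 63.5% and 60.7%, and 60.6% and 58.5%. Rpl29 differed from these in its -ps rows, since its single one held 9.84% and 18.6%. Adding the -ps rows brought the share of TPM from 10.2% to 11.5%, with pseudogenes of other symbols left out.

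**Figure D2:**
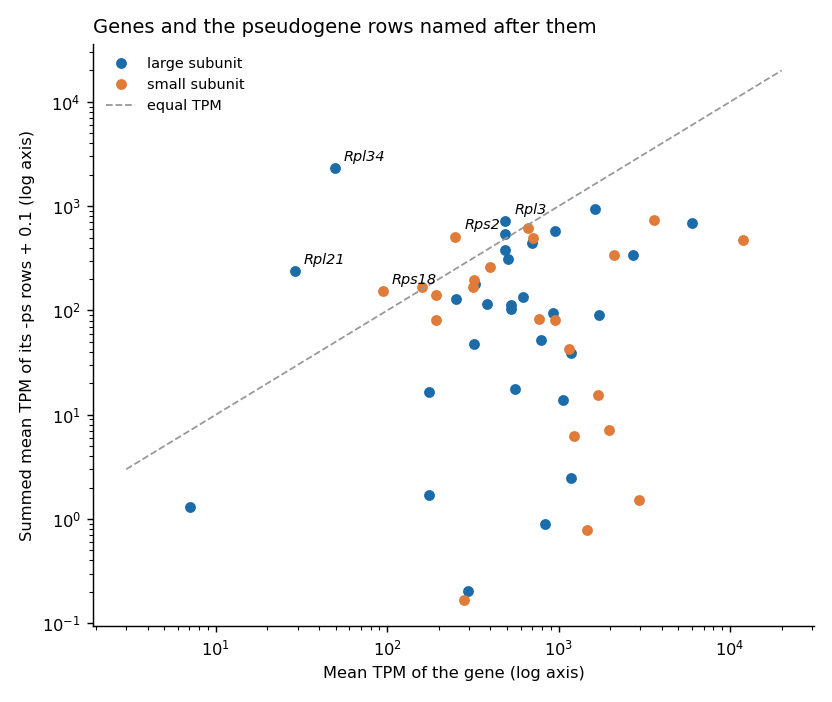
Mean TPM of each of the 52 genes with -ps rows (horizontal, log axis) against the summed mean TPM of those rows plus 0.1 (vertical, log axis), for the large and small subunits, with a dashed line of equal TPM. The 5 named genes lie above the line, Rpl34 farthest. Points are means, and only genes whose -ps rows were higher in each library are named.

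How much of each transcript could be told from other genes was measured with windows of 100 bases. They were counted as shared when they occur exactly, on either strand, in a transcript of another gene, including genes that overlap at the same place. One transcript per gene was used, the shortest with the best APPRIS rank and longest coding part. The median gene shared 43.2% of its windows, 28 genes shared under 25% and 19 genes 75% or more. Rps27l shared none. In contrast Rpl23a shared 80.04%, Rpl35 83.0% and Rps6 83.6%. For Rpl35 the largest part was with Wdr38 (52.3% of windows), which overlaps it on the opposite strand. Across the 90 genes Spearman rho between the share and the log2 level was 0.01, a description over genes of the same libraries. The median level nevertheless was lower in each higher class of sharing, at 9.58 under 25%, 9.24 between and 9.05 at 75% or more on the log2(TPM + 1) scale. In the small subunit these medians were 9.80, 9.30 and 8.32 over 12, 17 and 8 genes, and in the large subunit 9.35, 9.14 and 9.12. For 13 of the 77 genes whose closest sharing gene had a row, that gene was higher in both libraries. Chosen after its value was seen, the largest was Gm15772, a processed pseudogene that shares windows with Rpl26 and was at 8588 and 9427 TPM, while Rpl26 was at 1010 and 1170 TPM. Gm11361, which shares windows with Rps18, was at 1226 and 1342 TPM. Reads from such a pair that lie wholly within the shared part cannot be told apart, and the level of the gene alone is uncertain. Per the paper's methods the reads were longer than these windows, so some can reach bases that differ.

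The functional groups within the ribosome were at unequal TPM too, and the order of genes within them can depend on the length used. The stalk, which recruits the elongation factors, is built of Rplp0, Rplp1, Rplp2 and Rpl12. Rplp0 was at 868 and 791 TPM, Rplp2 at 276 and 305 TPM and Rpl12 at 286 and 304 TPM, against the 2382 and 2664 TPM of Rplp1. With TPM rescaled to the length of 1 transcript, Rplp2 was above Rplp0, at 1358 and 1503 against 1061 and 967. Rpl12 was then at 828 and 882, and Rplp1 was unchanged and still highest. Rpl5 and Rpl11, which with 5S ribosomal RNA form the particle that binds Mdm2, were at 1147 and 1220 TPM and at 579 and 636 TPM. Per length of 1 transcript they were closer, at 2199 and 2338 for Rpl5 and 1874 and 2059 for Rpl11. The 9 genes of the exit tunnel and its rim summed to 16674 and 18294 TPM. Besides Rpl23a and Rpl35 these were Rpl19 at 1745 and 1713 TPM, Rpl17 at 1590 and 1681 TPM, Rpl4 at 1376 and 1326 TPM, Rpl31 at 884 and 1018 TPM, Rpl39 at 349 and 412 TPM, Rpl22 at 161 and 192 TPM, and Rpl26 as given above. Rps2 and Rps3, which with Fau line the messenger RNA entry channel, were at 248 and 251 TPM and at 599 and 589 TPM. Rps27a, which like Fau encodes a fusion protein, in its case with ubiquitin, was at 926 and 990 TPM, below Fau. The 4 X-linked genes were all higher in replicate 2, as were 73 of the 90 genes. Rps4x was at 1905 and 2054 TPM, Rpl10 at 517 and 543 TPM, Rpl36a at 453 and 525 TPM, and Rpl39 was lowest.

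Paralogs of ribosomal protein genes lay both above and below their parents in TPM. Rps27l stood at 4.19 and 4.37 times the TPM of Rps27 (1170 and 1291 TPM), and the ratio was 3.35 ± 0.10 per coding base and 2.32 ± 0.07 per length of 1 transcript. Rpl22l1 was at 354 and 463 TPM, 2.20 and 2.42 times Rpl22, which is a 60S protein at the tunnel rim, and 1.35 ± 0.09 times per length of 1 transcript. Rpl39l, an autosomal copy of the X-linked Rpl39 known for its use in spermatogenesis, was at 532 and 553 TPM, 1.53 and 1.34 times Rpl39. This order turned with the length used, since Rpl39l had 4203 and 1537 reads and Rpl39 4754 and 1976, a ratio of 0.831 ± 0.075 per coding base. Rpl10l, the autosomal copy of X-linked Rpl10 that is needed in male meiosis, was at 101 and 91.5 TPM, 0.196 and 0.169 of Rpl10, but 0.0907 ± 0.0096 per coding base and 0.0709 ± 0.0075 per length of 1 transcript. Rpl36al, a copy of the X-linked Rpl36a without a symbol of the rule, was at 705 and 761 TPM, 1.55 and 1.45 times Rpl36a and 1.13 ± 0.06 times per length of 1 transcript. Rps27rt, whose coding sequence equals that of Rps27, was at 316 and 361 TPM, 0.275 ± 0.0066 of Rps27 and 0.0986 ± 0.0024 per coding base. Rps27rt shares 89.5% of its windows and Rps27 98.4%. Reads wholly within the shared part cannot be told apart, and the SD does not cover this. Sharing was also high for Rpl10 (91.6%), Rpl36a (83.6%), Rpl3 (79.4%), Rpl36al (59.0%) and Rpl22l1 (50.8%), so their ratios carry the same limit. The annotated pseudogene Rps4l was at 280 and 281 TPM, 0.147 and 0.137 of Rps4x. Rpl7l1 was at 0.0402 and 0.0311 of Rpl7 (1041 and 1068 TPM), and Rpl3l at 0.00178 and 0.00215 of Rpl3 (468 and 509 TPM), or 0.001 ± 0.00013 per coding base.

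**Figure D3:**
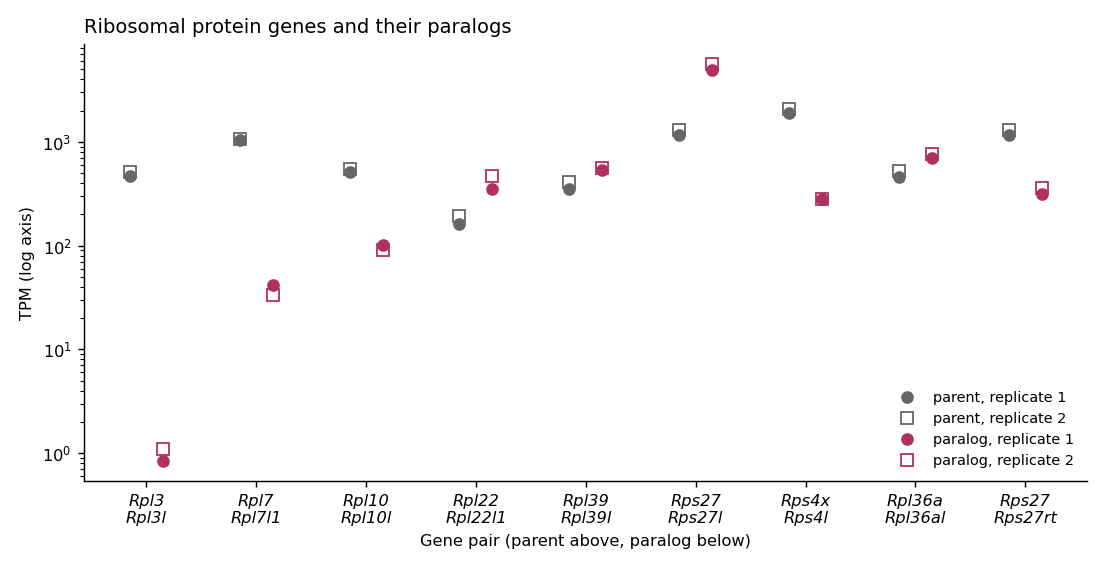
TPM (log axis) of 9 gene pairs, with the parent gene in grey and the paralog in red, for replicate 1 (filled) and replicate 2 (open). Rps27l, Rpl22l1, Rpl39l and Rpl36al lie above their parents in both libraries, of which Rpl39l falls below Rpl39 per coding base, and Rpl3l is near 1 TPM.

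Rpl39l and Rps27l can be told from their parents by sequence, as the coding sequences of GENCODE M21 show, where differing bases are in capitals. Rpl39 (chrX:37082520-37085402, minus strand) and Rpl39l (chr16:10170226-10174911, plus strand) differ at 23 of 156 bases.
Rpl39: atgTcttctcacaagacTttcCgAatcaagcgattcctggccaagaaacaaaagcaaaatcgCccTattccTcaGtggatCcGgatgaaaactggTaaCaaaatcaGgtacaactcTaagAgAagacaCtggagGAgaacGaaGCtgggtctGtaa
Rpl39l: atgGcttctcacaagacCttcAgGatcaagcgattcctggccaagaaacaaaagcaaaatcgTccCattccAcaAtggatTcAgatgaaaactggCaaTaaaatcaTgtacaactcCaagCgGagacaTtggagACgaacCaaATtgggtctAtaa
Rps27 (chr3:90212522-90213651, minus strand) and Rps27l differ at 61 of 255 bases.
Rps27: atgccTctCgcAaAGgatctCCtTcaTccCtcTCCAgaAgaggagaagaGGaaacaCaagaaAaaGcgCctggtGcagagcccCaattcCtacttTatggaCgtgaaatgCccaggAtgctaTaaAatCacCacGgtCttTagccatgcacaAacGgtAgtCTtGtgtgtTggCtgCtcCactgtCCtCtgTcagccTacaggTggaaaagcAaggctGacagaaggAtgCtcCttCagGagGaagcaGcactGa
Rps27l: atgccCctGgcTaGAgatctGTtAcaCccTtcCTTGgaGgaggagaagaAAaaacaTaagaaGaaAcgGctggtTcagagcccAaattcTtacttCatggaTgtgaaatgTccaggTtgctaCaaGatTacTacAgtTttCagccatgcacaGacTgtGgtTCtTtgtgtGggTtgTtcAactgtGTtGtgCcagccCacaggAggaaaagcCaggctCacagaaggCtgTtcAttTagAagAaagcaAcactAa
The differing bases are spread along both pairs, and no window of 100 bases in Rps27l or Rpl39l occurs in another gene. Rps27 itself shares 98.4% of its windows, chiefly with Rps27rt, and its own level is the uncertain one of that pair.

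The libraries gave nearly the same order of the 90 genes (Spearman rho = 0.997 across genes). None of the 90 differed more than 2-fold between them, while 10.2% of all genes did. Among other genes at a mean of 100 TPM or more it was 2 of 1125 (0.178%), so the count of 0 was near that of other abundant genes. The largest differences were 0.39 on the log2(TPM + 1) scale for Rpl22l1, 0.34 for Rpl38 and 0.33 for Rps20, at 215 and 270 TPM. In the other direction they were −0.33 for Rpl7l1, −0.32 for Rpl32l and −0.16 for Rps12l1, of which Rpl32l and Rps12l1 had few reads and overlapping counting intervals. The differences were mostly of one sign: 73 of the 90 genes were higher in replicate 2, 43 of the 53 large and 30 of the 37 small subunit genes. Of all genes 40.9% were higher in replicate 2, and of the other genes at 100 TPM or more 44.7%. The median difference was 0.10, against −0.02 in those other genes. Exact Poisson intervals of the 2 libraries were apart for 60 of the 90 genes, 55 of them higher in replicate 2. They were apart for 24.7% of all genes, 9.9% of all genes being higher in replicate 2, and for 46.8% of the other genes at 100 TPM or more, 18.5% being higher in replicate 2. With 1 library on each side the shift describes this pair of libraries and has no replicate check.

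The shift was larger for genes with a short coding part. All 11 genes with under 300 coding bases were higher in replicate 2 (median 0.20), against 16 of the 25 genes with 600 or more (median 0.07). Among other protein-coding genes at 100 TPM or more, 67.0% of the 112 under 300 coding bases and 30.03% of the 373 with 600 or more were higher in replicate 2. Spearman rho between the difference and the coding length was −0.45 over 84 protein-coding ribosomal protein genes and −0.28 over 807 other genes. At each length class the median of the ribosomal protein genes lay above that of the other genes. The part of fragment length and library preparation in this difference was not tested.

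**Figure D4:**
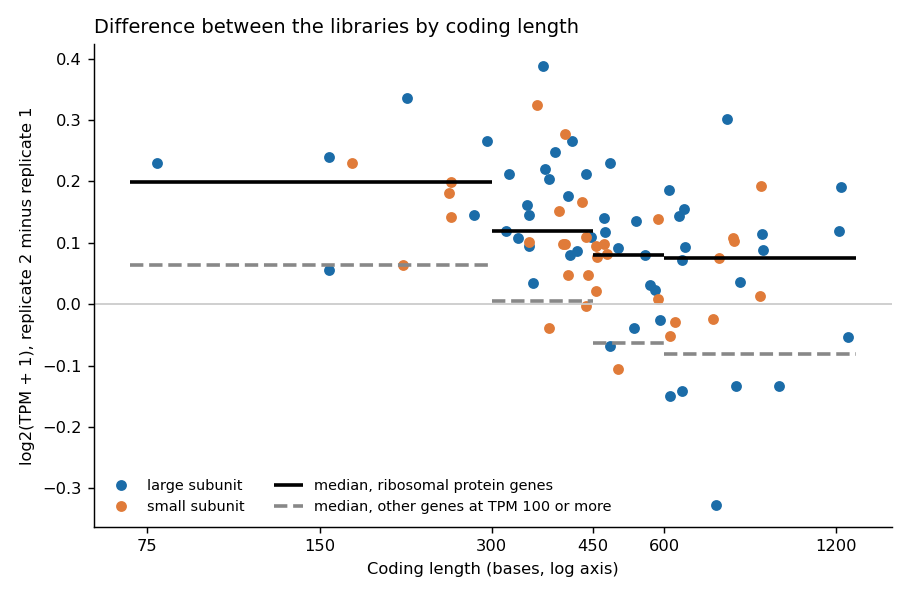
Difference in log2(TPM + 1), replicate 2 minus replicate 1, of the 84 protein-coding ribosomal protein genes against coding length (log axis), with large subunit genes in blue and small in orange. Lines give the median in 4 length classes, solid for these genes and dashed for other protein-coding genes at a mean of 100 TPM or more, and both fall from 0.20 and 0.06 in the shortest class to 0.07 and −0.08 in the longest.

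Genes with related names or tasks were at far lower levels. The 78 mitochondrial ribosomal protein genes, which serve the separate ribosome of the mitochondrion, had a median of 6.27 and 6.20 on the log2(TPM + 1) scale (6.23 ± 0.05), while the 90 cytosolic genes had one of 9.23 and 9.32. Each was at 1 TPM or more in both libraries, and Mrpl42 was highest at 2347 and 2428 TPM. Ribosome biogenesis genes, which make and process ribosomal RNA, had a median of 5.05 and 5.01 (5.03 ± 0.03) over 65 genes, 63 of them at 1 TPM or more in both libraries. Npm1, a nucleolar chaperone of ribosome assembly, was highest at 2202 and 2074 TPM, followed by Nop10 and Nhp2, small proteins of the H/ACA particle. Neither list showed the shift between libraries, with 33 of 78 and 27 of 65 genes higher in replicate 2.

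**Figure D5:**
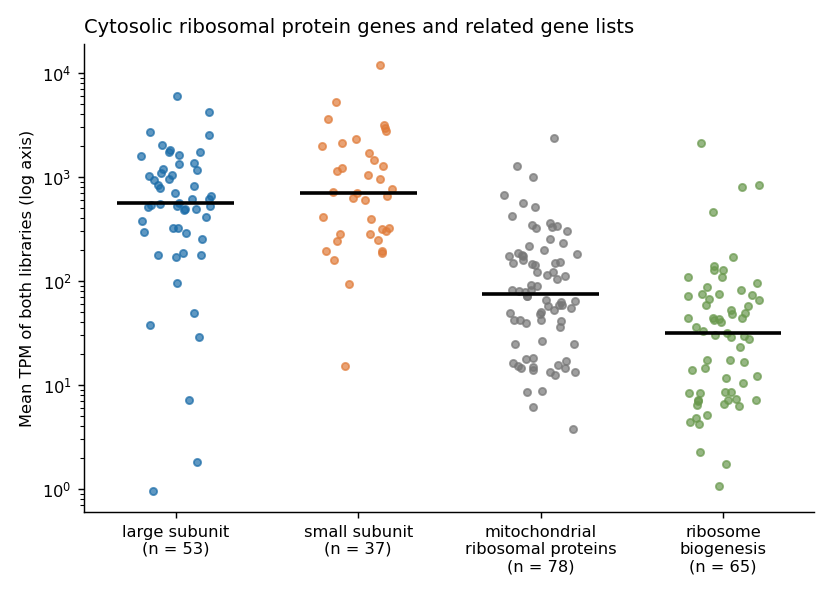
Mean TPM of both libraries (log axis) for each gene of the large subunit, the small subunit, the mitochondrial ribosome and ribosome biogenesis, with a black line at the median of each list. The medians are 556, 705, 75.02 and 31.5 TPM.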

How the data were processed

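RNA-seq of 2 E9.5 PGC libraries was analysed. Per the authors, clean reads were mapped to mm10 with HISAT2 and counted per gene with featureCounts, and values were deposited as TPM in a single table. The submitters' processing notes also name Bowtie2, RSEM, DESeq2 and R 3.4.2 without a role. The labels and the study's methods name different library kits, so the chemistry is uncertain. The featureCounts settings for multi-mapping and overlapping reads were not given in the sources used here.

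Of 18877 symbols, 18748 matched 1 gene of GENCODE M21 (GRCm38). TPM multiplied by the summed exonic length fell on whole multiples of 1 amount per library, within 0.02 reads for 96.7% and 95.8% of values under 50 reads, which gave recovered reads. The recovery and the fold count were tested on simulated data. Because TPM here divides by all exonic bases, retained introns included (median 1722 bases against 705 for 1 transcript per gene), levels between genes depend on the length used. Medians are of log2(TPM + 1) per library, given as mean ± SD of both. No test was made, since there is 1 group. Coding sequences were aligned with Biopython 1.88. Statistics used Python 3.11.15, pandas 2.3.3 and scipy 1.17.1.

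Genes named are those of the role lists (stalk, 5S particle, exit tunnel, entry channel, ubiquitin fusions, X-linked, paralogs), the 5 highest and 5 lowest of each subunit, and the 3 that rose and 3 that fell most between libraries; some of these are not reported here. The members and lists were chosen with earlier results of these data known. Alternatives were another pseudocount, filters, scaling, gene lists, lengths and leaving out each replicate. No column was left unmapped.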

Additional observations from a re-analysis of the deposited data

How the results depend on the processing

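No paired analysis was possible because the 2 libraries form 1 group. Of 31 alternative values that could be judged against the SD between the libraries, 15 moved by less and 16 moved by more. Medians at these levels, ratios and shares cannot change sign. The large minus small difference and the median difference between libraries could, and neither did. With 2 libraries, leaving out either moves a mean by less than the SD by construction, so those 14 values say nothing about stability. For the median difference between libraries, the yardstick was the SD of the 90 genes' median level, 0.0629. Over the standard 80 proteins the large subunit median was 9.34, the large minus small difference −0.16, and the share of TPM 9.54%. The difference was −0.25 with genes at a mean of 1 TPM or more, and, as alternatives added after seeing the data, −0.40 per length of 1 transcript, −0.44 per coding length and −0.46 over genes with under 25% shared windows. Large to small mean TPM per protein was 0.741 by recovered reads and 0.841 without the 3 highest genes of each subunit. Added later were 0.689 per length of 1 transcript, 0.811 per coding length and 0.476 over genes with under 25% shared windows. The last of these rests on few genes, as given above. The share was 11.8% with genes under 200 exonic bases left out of the total, 8.99% by recovered reads and 11.5% with the -ps pseudogene rows. The biogenesis median was 4.99 with a pseudocount of 0.1. Leaving out each replicate gave 9.06 to 9.19 and 9.37 to 9.50 for the subunit medians, −0.31 for their difference, 0.702 to 0.724 per protein and 9.73% to 10.6% of TPM. No gene passed 2-fold with other scaling, pseudocount or filter, and none passed 1.5-fold as reported. Median-ratio scaling took the median difference between libraries from 0.10 to 0.15. Low counts limit Rpl3l, Rpl32l, Rpl29 and Rps12l1.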
